A study of Mus musculus with 6 samples.

Results

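The 47 genes described here encode proteins of the cytosolic ribosome: 25 of the large subunit (Rpl3 to Rpl39), 3 of the stalk of that subunit (Rplp0, Rplp1 and Rplp2) and 19 of the small subunit (Rps3 to Rps29 and Rpsa). They were chosen by gene symbol, all 47 were found among the 31253 genes of the deposited count matrices, and every one passed the filter on low counts in each of the 7 cell classes tested. The 6 libraries are droplet single-cell libraries of hippocampus from aged mice, without a stated strain, sex or exact age. The sample labels do not state whether each library came from a different mouse. 3 libraries are from mice that breathed air (Control). 3 are from mice that breathed 2% sevoflurane, an inhaled anaesthetic, for 6 h (Sevoflurane). The tissue was taken 24 h later. Cells were obtained by mincing and digestion with a collagenase, and every group carries that handling.

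Ribosomal proteins assemble with ribosomal RNA in the nucleolus into the subunits that translate all cytosolic mRNA, and cells make them in nearly equal amounts. Most of their mRNAs begin with a C followed by a run of pyrimidines, the terminal oligopyrimidine or TOP motif, through which the kinase complex mTORC1 sets their translation as a group. These mRNAs are short, stable and mostly cytoplasmic, and in the brain they are also carried into neuronal and glial processes.

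Annotated start sites of 38 of the 47 genes were found in RefSeq (build GRCm38.p6). A C within 2 bases of the start, followed by at least 4 C or T, stood in 12 of the 38 (31.6%), against 10.6% of 27025 genes with an entry. Among other cytosolic ribosomal protein genes 10 of 22 had it (45.5%), and among nuclear genes of oxidative phosphorylation 4 of 30 (13.3%). These counts rest on annotated starts, and runs farther than 2 bases from them were not counted. A gene without a match was therefore not shown to lack a TOP start. The windows below run from 30 bases before the start to 20 bases from the start on, 5′ to 3′, with that pyrimidine run in capitals. They are shown because the group is known at the mRNA level for this run, and because Rps18, Rpl35, Rpl38, Rps6, Rps27 and Rplp2 return in the results.
Rps18 (chr17:33955646-33955695, minus strand): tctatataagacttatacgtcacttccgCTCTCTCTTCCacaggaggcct
Rpl35 (chr2:39005112-39005161, minus strand): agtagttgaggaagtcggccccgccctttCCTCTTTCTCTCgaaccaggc
Rps6 (chr4:86857348-86857397, minus strand): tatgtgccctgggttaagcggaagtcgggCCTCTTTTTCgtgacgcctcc
Rps27 (chr3:90213629-90213678, minus strand): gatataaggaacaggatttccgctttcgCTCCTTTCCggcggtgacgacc
Rpl38 (chr11:114668550-114668599, plus strand): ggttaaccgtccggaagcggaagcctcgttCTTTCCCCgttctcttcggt
Rplp2 (chr7:141447621-141447670, plus strand): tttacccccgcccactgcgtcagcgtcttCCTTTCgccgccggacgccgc

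The run differs in length and letters between the genes, from 6 bases in Rplp2 to 11 in Rps18 and 12 in Rpl35. In the 300 bases around the start, searched on both strands, the GABP motif CCGGAAG was present in 15 of the 38 genes (39.5%, against 9.93% of all genes) and the SP1 motif GGGCGG in 21 (55.3%, against 38.2%). A match of one can share G bases at its end with a match of the other. The YY1 motifs AAGATGGCG and ATGGCGGC, which overlap in ATGGCG, were found in 1 gene each, so that 2 genes had at least 1 of them (5.26%, against 3.46% of all genes). TATAAA was in 3 (7.89%, against 15.7%). These are matches of letters and not measured binding.

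The 6 libraries held 7068 to 9795 cell barcodes and 54426522 to 70741809 UMIs (unique molecular identifiers, each 1 counted RNA molecule), and 46876 cells remained after filters. Cells fell into 38 clusters, and clusters were named from marker genes. 7 classes had at least 20 cells in every library: neurons (27828 cells), oligodendrocytes (6927), astrocytes (4098), microglia (1625), oligodendrocyte precursors (1142), endothelial cells (642) and ependymal cells (543). No 2 libraries shared more than 0.333% of the barcodes of the smaller. Xist, which is expressed from the inactive X chromosome of females, had 92708 UMIs per 10,000 cells in Sevoflurane 1 and 39.1 to 87.3 in the other 5 libraries, and the Y-linked gene Uty had 4.45 and 8983 to 11177, so that 1 of 3 Sevoflurane libraries and no Control library carried a female pattern. Ttr, the transthyretin mRNA of the choroid plexus, had 0.48 to 2.77 UMIs per neuron in the Control libraries and 0.01 in each Sevoflurane library. A cell's own RNA and free RNA in its droplet cannot be told apart in a single UMI.

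Across cell classes the 47 genes together differed more in their share of the RNA than in their molecules per cell, and endothelial cells were highest on both scales. Their share was 22.4 ± 4.66 UMIs per 10,000 in neurons (mean ± SD, n = 6 libraries), 45.5 ± 10.8 in oligodendrocyte precursors, 53.4 ± 10.9 in astrocytes, 60.2 ± 9.64 in ependymal cells, 66.0 ± 12.7 in oligodendrocytes, 79.3 ± 14.3 in microglia and 207 ± 31.4 in endothelial cells. Neurons were lowest and endothelial cells highest in every library, whereas ependymal cells and oligodendrocytes, next to each other in this order, differed by less than their spread. Per cell, oligodendrocytes held 15.6 ± 2.35 UMIs of the 47 genes, astrocytes 16.1 ± 2.76, microglia 16.1 ± 2.06, oligodendrocyte precursors 16.8 ± 2.46, neurons 22.4 ± 3.36 and ependymal cells 24.5 ± 3.83. The oligodendrocyte, astrocyte, microglia and precursor libraries overlapped with each other and with neurons, and all lay below the lowest ependymal library (21.2). The median depth ran from 1993 UMIs per cell in microglia to 8691 in neurons. Endothelial cells held 97.0 ± 25.8 UMIs per cell. The median mitochondrial share by library was 0.0954 to 0.278% in neurons, 1.45 to 2.57% in ependymal cells and 1.14 to 2.00% in endothelial cells. The nuclear RNA Malat1 had 343 to 511 UMIs per 10,000 in neurons and 469 to 582 in endothelial cells. How much cytoplasmic RNA a barcode kept was not tested, so these levels need not be whole-cell contents. Classes come from clusters of these same cells, so no test between them is given.

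**Figure D1:**
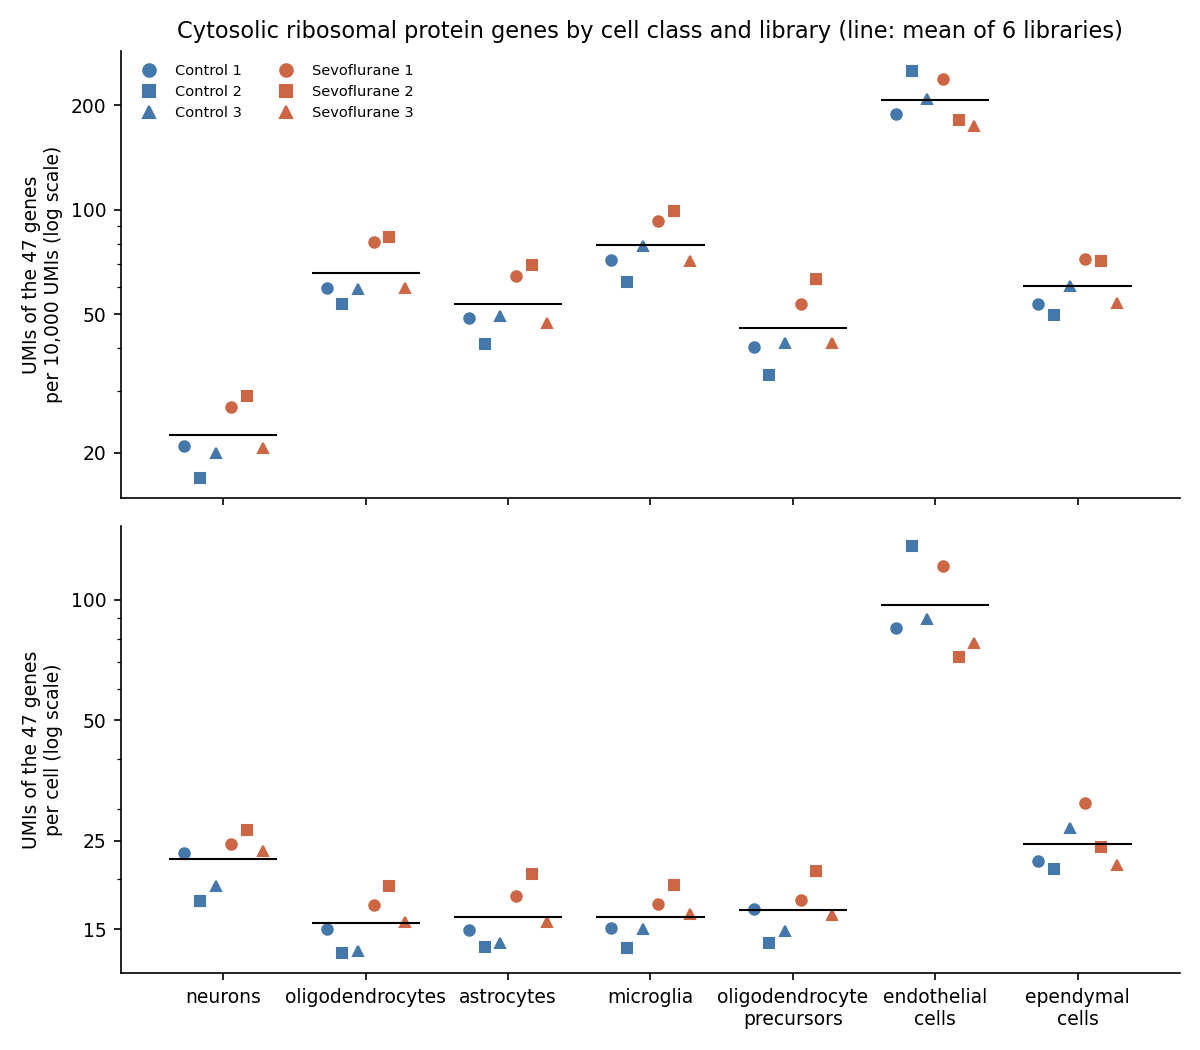
The 47 cytosolic ribosomal protein genes in each of the 6 libraries and 7 cell classes, as UMIs per 10,000 UMIs (top, log scale) and as UMIs per cell (bottom, log scale), with a line at the mean of the 6 libraries. Neurons are lowest in the upper panel (22.4 per 10,000) and above the glial classes in the lower one (22.4 per cell), endothelial cells are highest in both, and Sevoflurane 1 and 2 lie above the other libraries in the upper panel in each class but endothelial cells.

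Glia exceeded neurons by share and fell below them by molecules per cell. Oligodendrocytes had 2.96 ± 0.114 times the neuronal share and 0.696 ± 0.0356 times the neuronal UMIs per cell (n = 6 libraries). For astrocytes the values were 2.39 ± 0.0690 and 0.719 ± 0.0542, and for microglia 3.56 ± 0.217 and 0.722 ± 0.0481. Among cells of the same depth range, 2000 to 4000 UMIs, the ratio of shares was 1.34 ± 0.105 for oligodendrocytes, 1.18 ± 0.0919 for astrocytes and 1.52 ± 0.119 for microglia. Depth was not fully matched within the range. Its mean was 3226 UMIs in neurons, 2651 in oligodendrocytes, 2882 in astrocytes and 2489 in microglia. This depth range was an added choice, made with the values in view.

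The UMIs of the 47 genes rose far more slowly than the depth of the cell. Neurons with 1000 to 2000 UMIs held 10.0 ± 1.71 UMIs of these genes, and neurons with 16000 or more held 36.1 ± 7.93, while the UMIs of 12 neuron markers went from 25.7 to 399 per cell. The share of the 47 genes accordingly went from 61.0 ± 9.33 to 16.1 ± 3.25 per 10,000. Oligodendrocytes showed the same order, with 83.1 ± 13.8 per 10,000 in cells of 1000 to 2000 UMIs and 44.7 ± 8.25 in cells of 4000 to 8000. In endothelial cells the order was the opposite, with 134 ± 8.94 per 10,000 at 1000 to 2000 UMIs (4 libraries with at least 20 such cells) and 202 ± 37.8 at 4000 to 8000 (5 libraries).

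**Figure D2:**
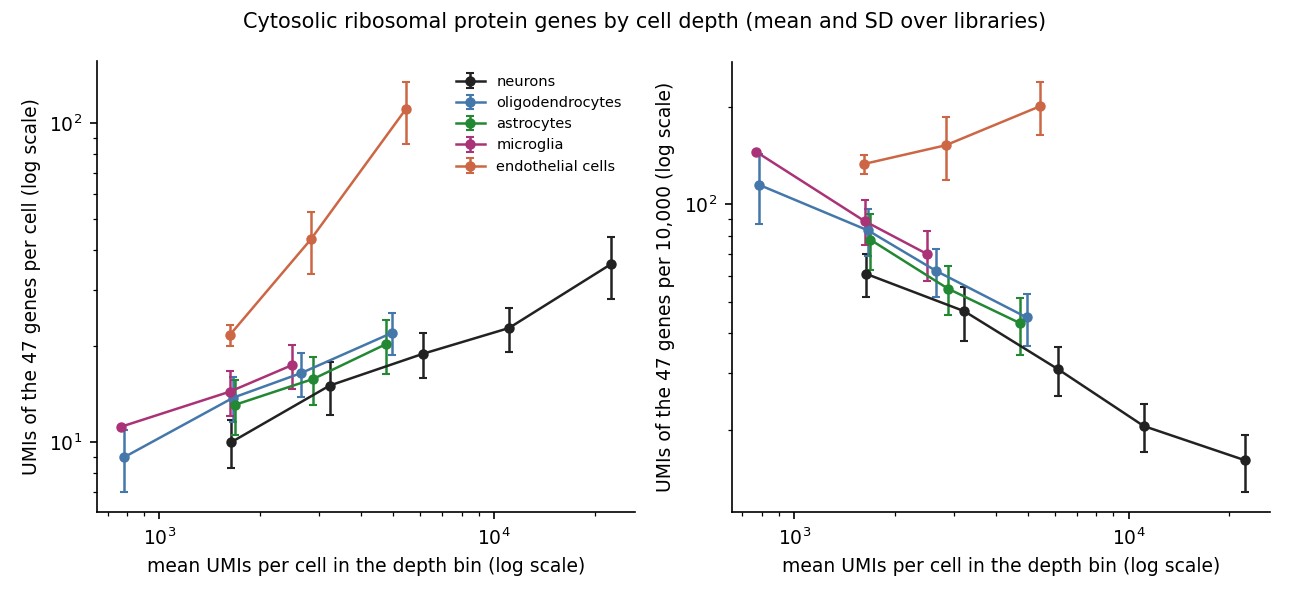
UMIs of the 47 genes per cell (left) and per 10,000 UMIs (right) against the mean depth of cells in each depth range, both axes on a log scale, with the mean and SD over libraries that had at least 20 such cells (1 library, with no SD, for microglia under 1000 UMIs). The share falls with depth in neurons, from 61.0 to 16.1, and in the 3 glial classes, and is higher in deeper endothelial cells, from 134 to 202.

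Free RNA, released from broken cells into every droplet, was followed by neuron markers in cells that should lack them. The 12 markers had 153 to 194 UMIs per neuron, and 8.76 to 11.9 per oligodendrocyte, 9.62 to 12.3 per astrocyte and 9.07 to 12.3 per microglial cell. The 47 genes had 0.131 ± 0.0285 UMIs for each marker UMI in neurons, 1.48 ± 0.218 in oligodendrocytes, 1.46 ± 0.238 in astrocytes, 1.52 ± 0.204 in microglia and 8.99 ± 3.22 in endothelial cells (n = 6 libraries). Neurons hold marker RNA of their own. The 3 glial classes differed by less than their spread in this ratio. In the 10% of cells of each library with the fewest UMIs the markers reached 61.7 to 90.1 UMIs per 10,000, more than in oligodendrocytes (38.9 to 51.7). These shallow cells came from every class and from unnamed clusters, so they include neurons with markers of their own. A shallow unnamed cluster of 1830 cells also scored highest for neuron markers. The value is therefore not a measure of free RNA alone. The part of the glial UMIs of the 47 genes that came from free RNA was not tested.

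Single members followed the sum. Among the 6 classes other than endothelial cells, the highest class mean of UMIs per cell was a median of 1.60 times the lowest over the 47 genes and at most 2.41 times, against a median of 5.05 over 10729 genes with at least 0.05 UMIs per cell. The make-up of the group was also alike: across the 47 genes the log shares correlated with r = 0.879 to 0.991 between these 6 classes, as a description over genes that share libraries and depth. Rpl13 and Rplp1 took the largest shares, 3.94% ± 0.189 and 3.6% ± 0.293 of the group's UMIs in neurons and 3.74% ± 0.143 and 4.37% ± 0.155 in oligodendrocytes. Rpl35, a protein near the exit of the nascent chain tunnel, was lowest in neurons at 0.768% ± 0.0693 and in oligodendrocytes at 0.756% ± 0.0950. Rpl15, Rpl6 and Rpl5 took more of the group in neurons than in oligodendrocytes, 3.10% against 2.06%, 3.81% against 2.69% and 2.32% against 1.69%, and Rps29, a small zinc-binding protein of the small subunit, took less, 2.66% against 3.20%. These 4 were named after their values were seen.

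Endothelial cells stood apart in all 47 genes. For every member the lowest endothelial library (UMIs per cell) was above the highest library of the other 6 classes. How many of all genes did so was not counted, so this cannot be read as particular to the 47 genes. The 36 nuclear genes of oxidative phosphorylation together were also highest there. They had 24.1 to 37.3 UMIs per endothelial cell and at most 19.5 in a library of the other 6 classes. For the 47 genes the ratio of the endothelial mean to the mean of the other 6 classes had a median of 5.15. It ran from 2.73 for Rpl3, a core protein of the peptidyl transferase centre, to 8.05 for Rps20. Rps20 had 1.63 to 3.43 UMIs per endothelial cell and at most 0.562 in any library of another class, and Rps16 followed with 1.8 to 3.44 and at most 0.629. The median ratio was 5.76 for small subunit genes, 5.15 for the stalk and 4.97 for the large subunit. Members with shorter transcripts had somewhat higher ratios: the 10 with the highest ratio had a median transcript of 646 bases and the 10 with the lowest 1112 (GENCODE M21, Spearman rho = -0.301 across 47 genes).

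The endothelial excess was not the same in all endothelial cells. 190 of the 642 cells had at least 2% of their UMIs in the 47 genes, 299 had 1 to 2%, and 153 had less than 1%. The cells of at least 2% had a median of 5122 UMIs and 1.83% mitochondrial UMIs, and those under 1% had 2432 UMIs and 0.803%. Endothelial marker genes rose over the same order, with 86.9, 108 and 129 UMIs per 10,000 from the lowest to the highest of these 3 ranges, and neuron markers went from 41.2 to 16.8. The share of cells at or above 2% was 16.8 to 58.7% by library, highest in Control 2 and lowest in Sevoflurane 3. The endothelial class was made of 2 clusters, one of 425 cells with 42.2 to 104 UMIs of the 47 genes per cell by library and one of 217 cells with 120 to 180. Both lay above every library of the other 6 classes. The leading genes of both clusters by fold included the endothelial genes Flt1 and Slc2a1 and the pericyte gene Rgs5. The haemoglobin gene Hbb-bs was among those of the smaller cluster only. The median depth of the smaller cluster was 5178 to 6089 UMIs by library, against 2148 to 3206 in the larger. The part of depth and of free RNA in these differences was not tested.

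The exposure comparison asks whether the 47 genes differed between Sevoflurane and Control libraries within a class, a question set by the design. By share, neurons had 20.9, 16.9 and 19.9 UMIs of these genes per 10,000 in Control 1, 2 and 3 and 27.1, 29.1 and 20.6 in Sevoflurane 1, 2 and 3. Oligodendrocytes had 59.7, 53.6 and 59.0 against 80.5, 83.6 and 59.6, in the same order. Astrocytes had 48.8, 41.2 and 49.5 against 64.4, 69.4 and 47.2. In each of these classes Sevoflurane 1 and 2 lay above every Control library and Sevoflurane 3 lay among or close to them. Microglia (71.8, 61.9 and 78.9 against 92.9, 99.5 and 71.2), oligodendrocyte precursors (40.4, 33.4 and 41.3 against 53.7, 63.0 and 41.5) and ependymal cells (53.6, 49.7 and 60.5 against 72.4, 71.3 and 53.9) had the same pattern. Endothelial cells did not share it, with 188, 251 and 208 against 238, 182 and 174 and overlapping groups.

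Counted as molecules per cell, Sevoflurane 3 stood closer to the other Sevoflurane libraries. Neurons held 23.3, 17.7 and 19.2 UMIs of the 47 genes per cell in the Control libraries and 24.5, 26.6 and 23.5 in the Sevoflurane libraries. Oligodendrocytes held 15.1, 13.1 and 13.3 against 17.2, 19.2 and 15.6, and microglia 15.1, 13.5 and 15.1 against 17.3, 19.4 and 16.4. On this scale the groups did not overlap in these 3 classes or in astrocytes, the gap in neurons being narrow, while they overlapped in oligodendrocyte precursors, ependymal cells and endothelial cells. This scale takes no account of depth, which was highest in the neurons, oligodendrocytes, astrocytes and microglia of Sevoflurane 3.

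Tested gene by gene with edgeR on summed counts, no member passed an adjusted p of 0.05 in neurons, oligodendrocytes, astrocytes, microglia, endothelial cells or ependymal cells, and 1 did in oligodendrocyte precursors (Benjamini-Hochberg adjustment over all genes tested in the class). The background was 3.69% of all genes called in neurons, 0.522% in oligodendrocytes, 2.06% in astrocytes, 0.312% in microglia, 0.8% in oligodendrocyte precursors, 2.35% in endothelial cells and 0.613% in ependymal cells. The smallest adjusted p of a member was 0.128 in neurons (Rps21), 0.189 in oligodendrocytes (Rpl3) and 0.167 in astrocytes (Rplp2). An unadjusted p under 0.05 was found for 15 members in neurons, 23 in oligodendrocytes, 15 in astrocytes, 10 in microglia, 23 in oligodendrocyte precursors, 0 in endothelial cells and 6 in ependymal cells, where 21%, 13.5%, 14.8%, 9.11%, 11.7%, 13.1% and 9.86% of all genes had one. DESeq2 called 0 members in each class and gave no adjusted p for 26 of them in microglia and 45 in oligodendrocyte precursors.

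The fold changes of the members nevertheless lay on one side. The log2 fold change, Sevoflurane over Control, had a median of 0.30 in neurons (0.03 to 0.45, above 0 in 47 of 47), 0.31 in oligodendrocytes (0.10 to 0.65, 47 of 47), 0.28 in astrocytes (-0.05 to 0.55, 46 of 47), 0.29 in microglia (43 of 47), 0.38 in oligodendrocyte precursors (45 of 47) and 0.22 in ependymal cells (41 of 47). The median over all genes tested was between 0.00 and 0.02, with 50.3 to 53.9% above 0. In endothelial cells the median of the members was -0.12 and 7 of 47 were above 0, and without Control 2 it was 0.01. Members share libraries, so their common side is 1 observation per library and not 47.

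**Figure D3:**
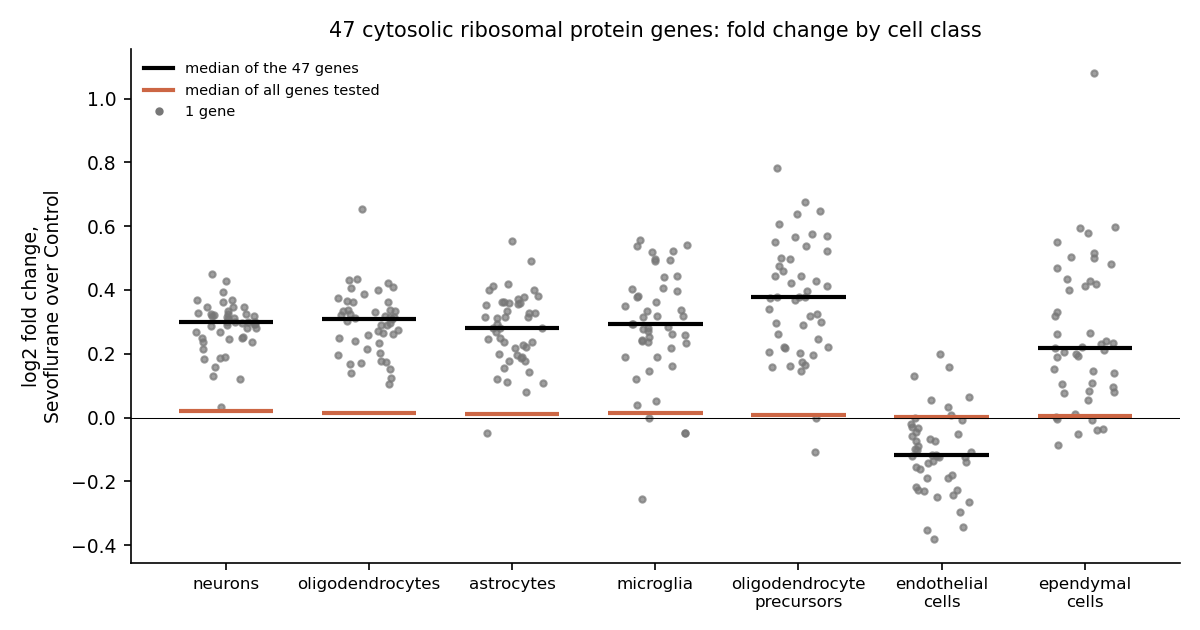
Log2 fold change (Sevoflurane over Control, edgeR) of each of the 47 genes in 7 cell classes, with the median of the 47 genes in black and of all genes tested in orange. The black line lies between 0.22 and 0.38 in 6 classes and at -0.12 in endothelial cells, and the orange line near 0 in all 7.

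The Sevoflurane libraries were spread over a wider range than the difference between the groups. In neurons, 47 members in Sevoflurane 1 and 46 in Sevoflurane 2 were above the highest Control library, and 2 in Sevoflurane 3. Of all genes tested, 36.2, 34.9 and 31.0% were above it in these 3 libraries. In oligodendrocytes the member counts were 47, 45 and 10, against 29.7, 30.9 and 27.9% of all genes. In astrocytes they were 45, 45 and 4, against 32.5, 30.6 and 28.6%. The median log2 level relative to the Control mean was 0.38, 0.48 and -0.02 in neurons for Sevoflurane 1, 2 and 3, and 0.12, -0.16 and 0.04 for Control 1, 2 and 3. All 3 Sevoflurane libraries lay above all 3 Control libraries for 2 members in neurons (13% of all genes did so), 10 in oligodendrocytes (8.3%), 4 in astrocytes (9.2%), 8 in microglia (6.58%), 10 in oligodendrocyte precursors (7.18%), 0 in endothelial cells (9.32%) and 9 in ependymal cells (7.27%). In neurons, astrocytes and endothelial cells the members' share was below the background.

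**Figure D4:**
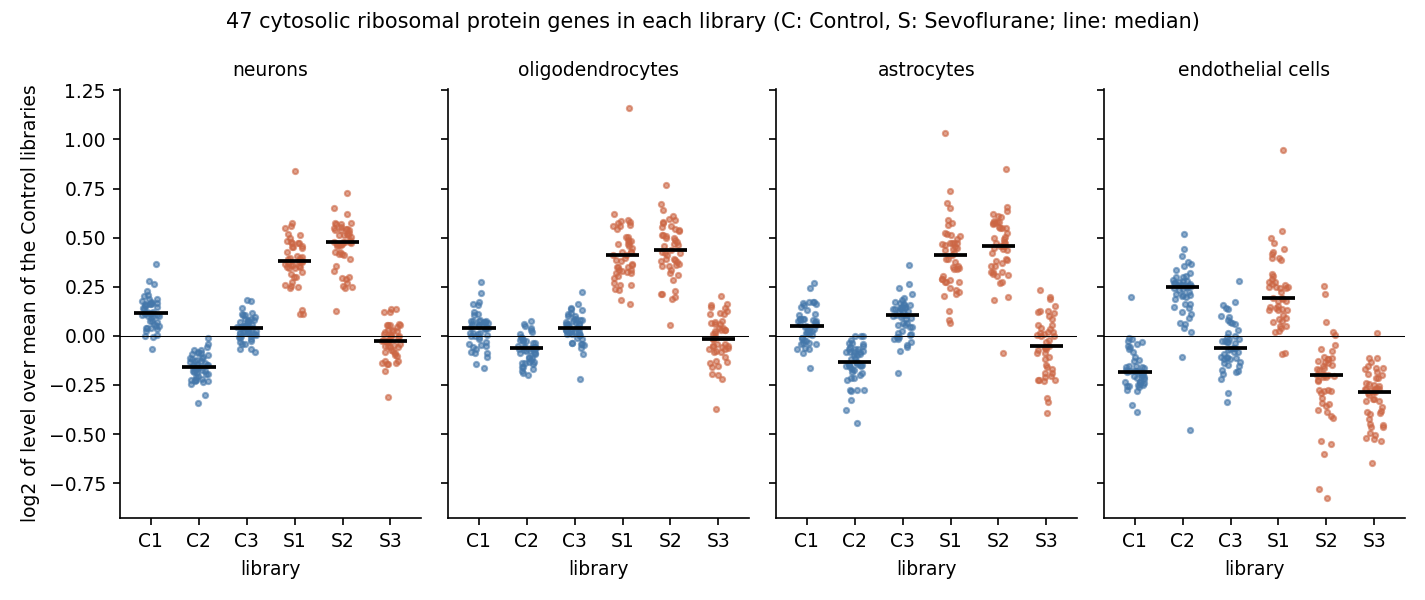
Each of the 47 genes in each library, as the log2 of its normalized level over the mean of the 3 Control libraries, in 4 cell classes, with the median of the 47 genes as a line. In neurons the median is 0.38 in Sevoflurane 1, 0.48 in Sevoflurane 2 and -0.02 in Sevoflurane 3, and in endothelial cells Control 2 and Sevoflurane 1 lie highest.

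Leaving out a library changed the counts. Without Sevoflurane 3, edgeR called 11 members higher in neurons (2.41% of all genes called), 2 in oligodendrocytes (0.398%), 2 in astrocytes (1.89%) and 4 in oligodendrocyte precursors (0.748%). The 11 in neurons were Rps23, Rpl32, Rpl12, Rps16, Rpl24, Rpl9, Rpl27, Rps7, Rpl38, Rpl23 and Rpl30, with log2 fold changes of 0.36 to 0.57. Without Sevoflurane 1, the library with the female pattern, 0 members were called in neurons, oligodendrocytes and astrocytes (2.05, 0.699 and 3.02% of all genes called). Their median log2 fold changes were 0.25, 0.24 and 0.24. Leaving out any of the other 4 libraries also left 0 members called in these 3 classes. In those fits only 0.189 to 1.11% of all genes were called in neurons, 0.0393 to 0.204% in oligodendrocytes and 0.45 to 1.16% in astrocytes.

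Depth differed between libraries, and the groups overlapped in it. The median depth of neurons was 9317, 9282 and 8290 UMIs in Control 1, 2 and 3 and 7825, 7811 and 9623 in Sevoflurane 1, 2 and 3, so that Sevoflurane 1 and 2, with the highest shares, had the shallowest neurons and Sevoflurane 3 the deepest. Among neurons of 4000 to 8000 UMIs the shares were 28.7, 24.8 and 26.9 per 10,000 against 36.5, 38.1 and 29.96. At this depth and at 2000 to 4000 UMIs all 3 Sevoflurane libraries lay above the Control libraries, Sevoflurane 3 by the least. In the other ranges Sevoflurane 3 lay below a Control library. It had 57.4 against 57.7 in Control 2 at 1000 to 2000 UMIs. Against Control 1 it had 19.8 and 20.2 at 8000 to 16000 UMIs, and 16.1 and 16.7 at 16000 or more. Among oligodendrocytes of 2000 to 4000 UMIs the shares were 58.7, 50.3 and 56.1 against 71.6, 78.8 and 58.4, with Sevoflurane 3 within the Control range. At 1000 to 2000 UMIs Sevoflurane 3 had 80.6 against at most 77.0 in a Control library, and at 4000 to 8000 UMIs 41.5 against at most 40.3. Neuron marker UMIs per oligodendrocyte were 12, 10.0 and 8.76 against 9.39, 11.9 and 11.4, in another order than the members, and their part in the members' levels was not tested.

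Neuron subtypes showed the pattern of the class. Clusters with dentate granule neuron markers had 27.2, 21.9 and 25.8 UMIs of the 47 genes per 10,000 in the Control libraries and 36.8, 37.7 and 26.9 in the Sevoflurane libraries. CA3-like neurons had 15.7, 11.5 and 14.8 against 18.4, 20.8 and 14.3, and interneuron-like cells 19.9, 17.4 and 18.2 against 24.5, 27.1 and 18.4. Per cell these 3 groups held 24.8 ± 4.60, 23.7 ± 3.19 and 20.8 ± 2.37 UMIs of the 47 genes (n = 6), although the median depth was 7134 in granule neurons and 14140 in CA3-like neurons. One granule-like cluster of 1601 cells, led by mitochondrial genes, held more, 29.8 to 42.5 UMIs of the 47 genes per cell by library, and its median mitochondrial share was 0.803 to 1.18% by library.

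The members are given next by role, as CPM (100 CPM are 1 UMI per 10,000 UMIs of the class, after scaling by edgeR's TMM factors) in Control 1, 2 and 3 and then Sevoflurane 1, 2 and 3, and none of those in neurons passed the test. The stalk recruits the GTPase factors of translation. Its base Rplp0 had 16.9, 12.7 and 15.9 CPM against 22.1, 20.2 and 15.7 in neurons (log2 fold change 0.35 ± 0.15 SE, edgeR adjusted p = 0.235). Rplp1 had 78.6, 58.3 and 68.9 against 97.6, 113 and 70.8 (0.45 ± 0.17, adjusted p = 0.188), the largest log2 fold change of a member in neurons. Rplp2, its partner in the stalk dimers, had 39.9, 31.8 and 39.0 against 46.1, 53.7 and 38.1 (0.32 ± 0.13, adjusted p = 0.231). In all 3 stalk genes Sevoflurane 1 and 2 were above the Control libraries and Sevoflurane 3 was inside their range.

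Of the large subunit, Rpl3 had 65.1, 47.3 and 51.6 CPM in neurons against 70.3, 85.1 and 56.2 (0.37 ± 0.16). Rpl5 and Rpl11 bind 5S ribosomal RNA and, when free, the p53 ligase Mdm2. Rpl5 had 48.2, 46.0 and 51.0 CPM against 57.3, 59.2 and 45.6, and Rpl11 55.6, 44.1 and 51.7 against 66.3, 69.5 and 50.1. Rpl10 joins the subunit late and is encoded on the X chromosome, as are Rpl39 and Rps4x. It had 33.7, 31.4 and 33.1 CPM against 35.8, 35.7 and 28.9 (0.03 ± 0.09), the smallest log2 fold change of the 47 genes in neurons, and its direction turned without Sevoflurane 1 or 2. Rpl38, needed for translation of Hox mRNAs in the embryo, had 54.3, 49.3 and 54.1 CPM against 67.5, 67.3 and 51.3 (0.24 ± 0.11, adjusted p = 0.256). Rpl39, which lines the exit tunnel, had 24.1, 18.7 and 22.4 CPM against 29.5, 28.4 and 23.5. Rpl32 had 36.0, 31.8 and 33.5 CPM against 48.0, 51.8 and 33.2 (0.39 ± 0.15). Sevoflurane 3 was below the highest Control library in all of these genes.

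Of the small subunit, Rps6 is phosphorylated by the S6 kinase downstream of mTORC1, a common readout of neuronal activity at the protein level. Its mRNA had 27.2, 25 and 27.6 CPM in neurons against 32.7, 38 and 25.6 (0.27 ± 0.13, adjusted p = 0.295). Rps3 at the mRNA entry had 29.1, 18.3 and 21.6 CPM against 33.7, 26.9 and 21.4, and X-linked Rps4x 30.7, 24.8 and 26.8 against 35.7, 40.6 and 26.9. Rps19, mutated in Diamond-Blackfan anaemia, had 42.2, 32.1 and 39.6 CPM against 48.9, 52.0 and 36.4. Rps27 had 48.9, 41.3 and 52.0 CPM against 60.0, 56.3 and 45.4, and Rps28 36.6, 29.3 and 37.0 against 47.3, 42.9 and 34.7. Rps29 had 56.1, 44.3 and 55.6 CPM against 71.8, 72.0 and 56.8 (0.36 ± 0.12, adjusted p = 0.141), and here all 3 Sevoflurane libraries were above the Control libraries, the lowest by a narrow gap. Rpsa, which is also known as a laminin receptor, had 49.0, 39.5 and 43.5 CPM against 52.1, 62.6 and 47.8.

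Rpl23 in oligodendrocyte precursors was the 1 call. This large subunit protein, like Rpl5 and Rpl11, can bind Mdm2. It had 90.7, 90.3 and 92.8 CPM in the Control libraries and 167, 167 and 136 in the Sevoflurane libraries, with a log2 fold change of 0.78 ± 0.16 SE (edgeR adjusted p = 0.0180, higher in 3 of 3 Sevoflurane libraries). The groups did not overlap, with means of 91.3 ± 1.37 and 157 ± 18 CPM (SD, n = 3). Leaving out any single library other than Sevoflurane 3 raised the adjusted p above 0.05, with values of 0.0584 to 0.160, while the log2 fold change stayed between 0.73 and 0.79. The adjusted p was also above 0.05 with cells thinned to 1000 UMIs (0.0753), without the trend with gene length (0.128) and with a replicate block (0.0775), and DESeq2 gave no adjusted p for 45 of the 47 members in this class.

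The members with the largest fold changes in glia did not pass the test. Rps18 led in oligodendrocytes, with 71.8, 61.2 and 67.7 CPM against 149, 113 and 51.5 (0.65 ± 0.28, adjusted p = 0.338), and in astrocytes, with 56.1, 39.1 and 68.3 against 108, 95.7 and 40.4 (0.55 ± 0.28, adjusted p = 0.395). In oligodendrocytes Rpl3 had 160, 149 and 157 CPM against 217, 242 and 172 (0.44 ± 0.13, adjusted p = 0.189) and Rps28 101, 95.4 and 93.6 against 149, 138 and 105 (0.43 ± 0.13, adjusted p = 0.192). In both of these genes every Sevoflurane library was above every Control library. In astrocytes Rpl30 had 99.2, 70.6 and 110 CPM against 153, 138 and 104, and Rps27 88.7, 88.7 and 102 against 149, 126 and 102.

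Rps18, a protein of the head of the small subunit, varied between libraries in its own way. After the median of the other members was taken out of each library, it ranged over 0.86 on the log2 scale (mean of 6 classes without endothelial cells), from 0.47 in Sevoflurane 1 to -0.39 in Sevoflurane 3, against a median range of 0.20 over the 47 genes and 0.52 for Rpl35, the next. In neurons it had 34.7, 24.4 and 35 CPM against 55.3, 46.1 and 24.9. Over all kept cells it had 43.2, 27.5 and 41.7 CPM (unscaled) in the Control libraries and 69.4, 59.0 and 31.7 in the Sevoflurane libraries. The pseudogene row Rps18-ps6 had 1.63, 2.77 and 1.82 against 0.0835, 1.42 and 3.42, lowest where Rps18 was highest. Another pseudogene row, Rps18-ps5, went the other way, with 0.623, 0.648 and 0.475 against 1.69, 1.19 and 0.733, highest where Rps18 was highest. The value of Sevoflurane 1 rests on 59910358 UMIs in all. It includes 59 UMIs of Rps18-ps5 from only 13 barcodes, which are described under the other observations. The level of Rps18-ps5 without these barcodes was not computed, so its order over libraries may depend on them. Reads from a gene and a near-identical copy can be split or dropped in counting, and how the authors' counting treated these rows was not tested. Rps18 and its pseudogene rows were singled out after their values were seen.

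**Figure D5:**
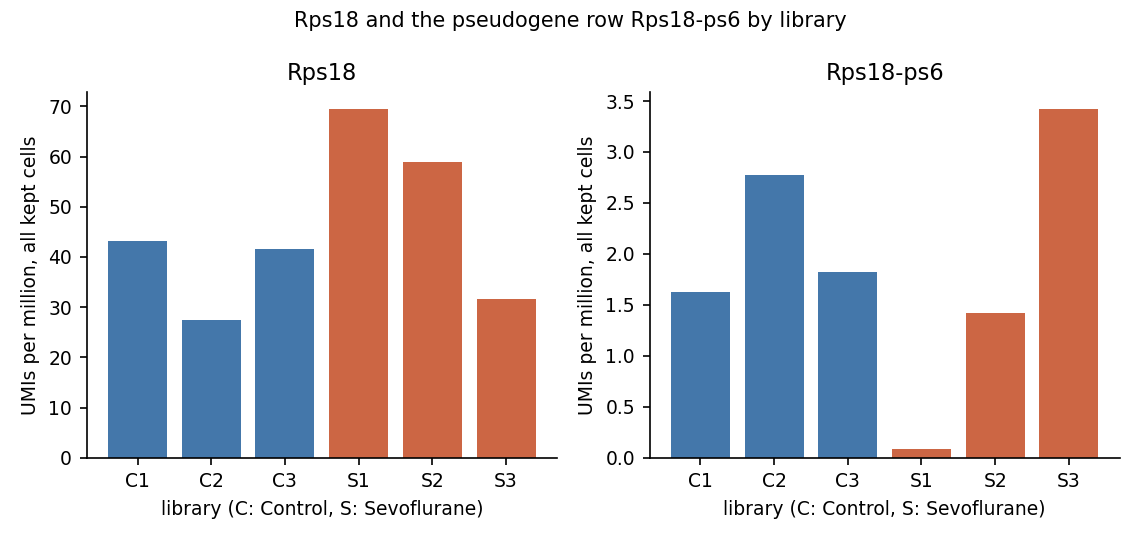
CPM without scaling over all kept cells of each library for Rps18 (left) and the pseudogene row Rps18-ps6 (right), 1 bar per library. Rps18 is highest in Sevoflurane 1 (69.4) and lowest in Control 2 (27.5), and Rps18-ps6 is lowest in Sevoflurane 1 (0.0835) and highest in Sevoflurane 3 (3.42).

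Whether the exposure effect differed between classes was tested for the 3 pairs among neurons, oligodendrocytes and astrocytes, and no member was called. The difference from endothelial cells, whose median had the opposite sign, was not tested, nor were microglia, oligodendrocyte precursors and ependymal cells. In this test, with the library as a block, edgeR called 0 members between neurons and oligodendrocytes (0.597% of all genes called; 1 member had an unadjusted p under 0.05), 0 between neurons and astrocytes (1.81%; 0 members) and 0 between oligodendrocytes and astrocytes (0.902%; 0 members). An unadjusted p under 0.05 was found for 9.12, 11.5 and 10.7% of all genes in these 3 pairs. The median difference of the members' log2 fold changes was 0.04, 0.02 and -0.05. DESeq2 was not run for this test.

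Related gene lists were read from the same fits. The other 34 cytosolic ribosomal protein genes had 0 called genes in neurons, oligodendrocytes and astrocytes and median log2 fold changes of 0.28, 0.31 and 0.28. The 36 nuclear genes of oxidative phosphorylation had 0 called and medians of 0.27, 0.28 and 0.21, and their share in neurons was 14.8, 12.5 and 14.6 UMIs per 10,000 in the Control and 18.5, 21.3 and 14.3 in the Sevoflurane libraries, the same order of libraries at the top as for the ribosomal genes. The 16 translation factors with TOP mRNAs had medians of 0.15, 0.19 and 0.17 and 0 called. The 49 mitochondrial ribosomal protein genes, which serve the ribosome inside mitochondria, had 0.09, 0.18 and 0.06 and 0 called, and the 20 nucleolar ribosome assembly genes 0.05, 0.08 and 0.20 and 0 called. Of the mTORC1 list, 0 of 19 tested genes were called in neurons and 0 of 18 in oligodendrocytes, and 1 of 18 in astrocytes.

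That gene was Ddit4, an mTORC1 inhibitor induced by stress and glucocorticoids, with 22.1, 14.9 and 19.1 CPM in Control astrocytes and 33.7, 41.7 and 41.6 in Sevoflurane astrocytes (log2 fold change 1.09 ± 0.19 SE, edgeR adjusted p = 0.00690). All 3 Sevoflurane libraries were above the Control libraries, and Sevoflurane 3, which lay low for the ribosomal genes, was among the highest. The 13 mitochondrially encoded genes had medians of 0.02, 0.28 and 0.08 and 0 called. RNAs kept in the nucleus were below 0 for 6 of 7 in neurons, oligodendrocytes and astrocytes. They were above 0 for 3 of 6 tested in microglia and in ependymal cells, and for 5 of 6 in endothelial cells. In neurons 2 of them were called lower. Kcnq1ot1 had 668, 694 and 658 CPM against 531, 530 and 547 (-0.33 ± 0.05, adjusted p = 0.0175), and Mirg 163, 150 and 148 against 118, 126 and 123 (-0.33 ± 0.06, adjusted p = 0.0280). The 7 paralogs of ribosomal protein genes had 5, 4 and 5 tested, 0 called and medians of 0.06, 0.15 and 0.23. Within the 47 genes the median log2 fold changes in neurons were close to each other, 0.29 for the large subunit, 0.35 for the stalk and 0.30 for the small subunit.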

How the data were processed

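The deposited matrices hold UMI counts per gene and barcode for 6 libraries, which the authors produced in Cell Ranger (release 6.1.1 in the file headers). The submitters' processing notes also name CASAVA 1.8 and Seurat. The genome build is not given in the sources used here. The 47 genes, the other lists and the markers were chosen with earlier results of these data known.

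Barcodes under 500 UMIs, under 300 genes or over 20% mitochondrial UMIs were dropped, and 5.64 to 7.81% of the others per library were removed as doublets by their simulated doublet score. Cells were clustered with scanpy 1.11.5 (2000 variable genes without ribosomal protein genes, 30 components, Leiden resolution 1) and clusters named from fixed markers, so class names are rebuilt and not the authors'. 6 of 38 clusters stayed unnamed. UMI counts were summed per library and class and tested with edgeR 4.0.16 (quasi-likelihood, TMM factors, filterByExpr) in R 4.3.3, with Benjamini-Hochberg adjustment over all genes of the class and a threshold of 0.05. Only the 6 libraries of a class entered each fit. The test was checked on simulated counts. The labels give 3 libraries per group and do not tie replicate numbers to shared animals or days, so a p-value here reflects only how much these 6 libraries vary, which may be technical, and an exact permutation test of 3 against 3 cannot go below 0.1. Totals of 54426522 to 70741809 UMIs limit the precision of single genes in small classes.

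Values per library were printed for every member called, the 3 members of largest absolute log2 fold change with a mean of at least 20 CPM in neurons, oligodendrocytes and astrocytes, and 17 members with a known role in neurons. In other lists, called genes of those 3 classes were named. Alternatives were DESeq2 1.42.0, no filter on low counts, library totals alone, thinning each cell to 1000 UMIs, at most 1% mitochondrial UMIs, subtraction of the profile of the shallowest cells, removal of a trend with gene length, a replicate block and leaving out each library. Promoter windows came from RefSeq (GRCm38.p6), of which 9 members had no entry, and transcript lengths from GENCODE M21.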

Additional observations from a re-analysis of the deposited data

How the results depend on the processing

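The direction of the median log2 fold change held in neurons, oligodendrocytes, astrocytes and oligodendrocyte precursors under each alternative run, and no more than 11 members were called in any class. Leaving out each library gave 0 to 11 called members in neurons, 0 to 2 in oligodendrocytes, 0 to 2 in astrocytes, 0 to 4 in oligodendrocyte precursors and 0 to 1 in ependymal cells (edgeR). Of all genes, 0.189 to 2.41%, 0.0393 to 0.699%, 0.45 to 3.02%, 0.0411 to 0.748% and 0.187 to 1.05% were called, in the same order of classes. The highest counts of members came without Sevoflurane 3, and in ependymal cells without Control 1. Without the filter on low counts 4 members were called in oligodendrocytes (531 of all 21611 genes), 1 in astrocytes (612 of 21455) and 1 in ependymal cells (97 of 19121). With cells thinned to 1000 UMIs 1 was called in neurons (Rps29; 334 of all 13595 genes). The 1 call in oligodendrocyte precursors became 0 when cells were thinned, when the shallow-cell profile was subtracted (2 members tested, Rpl23 not among them), when the length trend was removed and with a replicate block. DESeq2 gave no count there, since its adjusted p was not available for 45 members.

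Medians moved by more than their spread in 6 cases. With the shallow-cell profile subtracted they were 1.05 in astrocytes (32 members tested), -0.15 in microglia (25 tested) and -0.039 in ependymal cells (36 tested). With at most 1% mitochondrial UMIs they were -0.45 in endothelial cells and 0.52 in ependymal cells, and without the length trend 0.14 in oligodendrocyte precursors. Causes were not tested. With library totals alone the median of all genes shifted to 0.15 in neurons, 0.10 in astrocytes and 0.11 in oligodendrocyte precursors. Rpl10 in neurons turned to -0.018 without Sevoflurane 1, -0.016 without Sevoflurane 2 and -0.084 without the length trend, and leaving out each library in turn gave -0.018 to 0.13.

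In no class did the deviations of all 3 same-numbered pairs correlate above 0.1. These deviations were taken from means of only 3 libraries per group. Whether same-numbered libraries share a day or batch therefore cannot be told from this check. With the replicate block 0 members were called in neurons, oligodendrocytes, astrocytes, microglia and endothelial cells and 1 in ependymal cells, with medians of 0.29, 0.29, 0.28, 0.29 and -0.12 and 0.23.

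Ratios of the members' level to that of neurons depended on the scale. By UMIs per cell they were 0.696 in oligodendrocytes, 0.719 in astrocytes, 0.722 in microglia, 0.748 in oligodendrocyte precursors, 1.11 in ependymal cells and 4.50 in endothelial cells. In thinned cells they were 2.66, 2.15, 3.08, 1.91 and 2.40 for the first 5 of these classes, and in cells of 2000 to 4000 UMIs 1.34, 1.18 and 1.52 for the first 3. Depth limits single members most in ependymal cells and oligodendrocyte precursors, where the member with the fewest counts had 87 and 144 UMIs over the 6 libraries.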

Other observations

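13 barcodes held far more of the 47 genes than any other kept cell. All 13 were in Sevoflurane 1, among its 8996 kept cells, and all lay in the same unnamed cluster, so none entered a class test. They had 539 to 1110 UMIs each, and the 47 genes took 13 to 30.3% of them, against 8.04% in the next highest kept cell and a median of 0.332% over kept cells. In these 13 barcodes together the 47 genes had 2272 of 9479 UMIs, while the nuclear RNA Malat1 had 3 and the mitochondrial genes 2. The members were uneven in them, with 274 UMIs of Rpl8, 260 of Rpl10, 258 of Rps14 and 201 of Rps23, and 9 members at 0, among them Rpl6, Rpl38, Rplp0 and Rps29. The calcium-binding protein gene S100a6 had 384 UMIs there and Rack1, which encodes a scaffold protein of the small subunit, had 185. These barcodes were singled out after their values were seen.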
